A study of Mus musculus with 10 samples.

Results

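Of 13586 WT Pol II peaks that lay at promoters and were narrower than 4000 bp, 4715 had no Pol II peak called over them in Qk-/- cells, which is 34.7%. They were chosen by comparing 2 lists of called peaks: each overlaps the region within 2 kb of the TSS of a protein-coding gene (GENCODE M21 basic annotation, mouse build GRCm38, also named mm10) and shares no base with any row of the Qk-/- Pol II list. The other 8871 promoter peaks, each overlapped by a Qk-/- Pol II peak by at least 1 bp, are called kept peaks here. "Not called" describes the peak lists only, since a region below the calling threshold can still hold Pol II, and read signal was not analysed here.

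The peaks come from chromatin immunoprecipitation with sequencing (ChIP-seq) of mouse oligodendrocytes, which had been differentiated from cultured neural stem cells (NSCs) of a FvB/C57BL6 hybrid strain, with antibodies against the C-terminal repeat of Pol II (Abcam ab817), Qki-5 (home-made) and Srebp2 (Cayman Chemical). WT cells were compared with Qk-/- cells. According to the methods, NSCs were taken from Nestin-CreERT2;Qk L/L pups, Qk was deleted in culture with 4-hydroxytamoxifen, which activates a Cre recombinase driven by the Nestin promoter, and differentiation medium held B-27 and the thyroid hormone T3. There was 1 library for each antibody and genotype, so the spread among cultures is unknown and no test between genotypes was possible. Cells at passage 7 gave the Pol II and Qki-5 libraries, which have 1 input in common per genotype, and cells at passage 8 gave the Srebp2 libraries, which have separate inputs. Each peak carries its fold enrichment, the ratio of ChIP signal at the summit to the local background, and a −log10 q-value. The lists hold no read totals, so the depth is unknown.

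Pol II transcribes protein-coding genes. It gathers at the start of a gene, often pauses just downstream of the TSS, and then travels through the gene body, so a Pol II peak at a TSS marks a promoter that is engaged by the polymerase. Qki binds RNA, and its nuclear isoform Qki-5 has also been found on chromatin at promoters. Srebp2 is the transcription factor that switches on genes for cholesterol synthesis and uptake when cells are short of sterol. Oligodendrocytes make the cholesterol-rich myelin sheath around axons.

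The labelled cell type was compared with marker genes. Of 14 oligodendrocyte markers, 3 had a WT Pol II peak of any width at their promoter, namely Cnp (33.4-fold), Olig1 (30.7-fold) and Olig2 (25.1-fold). Those without one included Mbp, Mog, Mag, Mobp, Cldn11, Ugt8a, Sox10, Myrf, Opalin and Aspa. Of 8 NSC and astrocyte markers, 7 had one, led by Vim (92.9-fold), Slc1a3 (43.7-fold) and Sox2 (40.8-fold), and of 4 precursor markers 3 did. Of 6 neuron markers 2 had one, and of 6 microglia markers 0 had one. In Qk-/- cells the counts were 3, 7, 2, 1 and 0, in the order oligodendrocyte, NSC and astrocyte, precursor, neuron and microglia. The prefix of the peak names is mNSC in the Pol II and Qki-5 lists but OL in the Srebp2 lists.

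Upstream sequence is shown for 8 promoters, because they are those of the strongest peaks that were not called in Qk-/- cells (Kitl, Isg15 and Xpot), of those with the strongest Qki-5 peaks (Cpsf1, Mlc1 and Ppm1h) and of 2 of the 3 with both Qki-5 and Srebp2 (Fdps and Hsd17b12). The sequence at Stard4, the third, is not shown here. Each run is the part of the peak upstream of the named gene's start that no annotated exon covers, up to 150 bp, read 5′ to 3′ on the gene's strand from the GRCm38 genome. Capitals mark matches, on either strand, to CCAAT (the CCAAT box), GGGCGG (the GC box), TATAAA (the TATA box), TCACCCCAC (a sterol regulatory element core), TGACGTCA (the CRE), CACGTG (an E-box) and GAAANNGAA (a core of interferon response elements, added after the values were seen).
Kitl, chr10:100015480-100015629, plus strand: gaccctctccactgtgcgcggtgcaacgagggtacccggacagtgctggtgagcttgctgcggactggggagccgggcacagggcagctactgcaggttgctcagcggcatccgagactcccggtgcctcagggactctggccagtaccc
Isg15, chr4:156200819-156200968, minus strand: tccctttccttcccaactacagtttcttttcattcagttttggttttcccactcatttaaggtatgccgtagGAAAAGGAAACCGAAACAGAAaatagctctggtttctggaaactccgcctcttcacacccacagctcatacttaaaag
Xpot, chr10:121626333-121626482, minus strand: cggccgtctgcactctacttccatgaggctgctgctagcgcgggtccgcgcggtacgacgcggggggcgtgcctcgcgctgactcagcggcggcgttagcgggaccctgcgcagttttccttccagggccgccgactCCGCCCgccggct
Cpsf1, chr15:76607592-76607687, minus strand: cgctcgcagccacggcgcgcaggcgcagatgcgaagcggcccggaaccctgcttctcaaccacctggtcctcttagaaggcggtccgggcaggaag
Mlc1, chr15:88979008-88979157, minus strand: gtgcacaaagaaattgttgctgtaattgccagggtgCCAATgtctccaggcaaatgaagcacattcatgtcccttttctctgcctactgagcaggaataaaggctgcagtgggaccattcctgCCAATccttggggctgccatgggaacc
Ppm1h, chr10:122895218-122895367, plus strand: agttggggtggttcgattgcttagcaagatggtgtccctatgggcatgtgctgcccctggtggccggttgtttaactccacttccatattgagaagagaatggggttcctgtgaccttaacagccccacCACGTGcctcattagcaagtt
Fdps, chr3:89101960-89102109, minus strand: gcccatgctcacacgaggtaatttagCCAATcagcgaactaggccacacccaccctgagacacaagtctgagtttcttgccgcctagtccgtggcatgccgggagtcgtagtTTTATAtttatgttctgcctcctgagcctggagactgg
Hsd17b12, chr2:94157965-94158099, minus strand: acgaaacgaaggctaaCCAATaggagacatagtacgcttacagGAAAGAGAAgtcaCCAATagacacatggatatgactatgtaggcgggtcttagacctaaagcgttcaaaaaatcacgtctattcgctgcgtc

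The Isg15 run holds 3 overlapping matches to the interferon response core close together and no GC box, whereas the Xpot run is rich in G and C and holds 1 GC box. The Fdps and Hsd17b12 runs hold 1 and 2 CCAAT boxes, and none of the 8 runs holds the sterol regulatory element core in these letters. The Kitl run ends 287 bp upstream of the TSS nearest to the summit, the Cpsf1 run 81 bp and the Xpot run 17 bp, because annotated exons lie between. The other 5 runs end at the base next to the TSS. The peak with the highest Qki-5 enrichment, at Mecom, did not reach upstream sequence of its TSS and is not shown.

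The peaks not called in Qk-/- cells were mostly weak peaks of the WT list. Fold enrichment comes from a list that defined them, so these values are given without a test. Their median WT Pol II fold enrichment was 4.58 (quartiles 3.93 and 5.93, range 2.25 to 30.84), against 16.7 for kept peaks. Ranked by fold enrichment among all 32280 WT Pol II peaks, they had a median rank of 18794, against 5087 for kept peaks, and 37.2% of them were in the upper part of the list down to rank 16140. The share of promoter peaks not called was 95% below a fold enrichment of 4, 86.9% from 4 to 6, 54.9% from 6 to 8, 25.9% from 8 to 10, 9.92% from 10 to 15 and 0.842% from 15 upward. Weak promoter peaks were thus nearly all without a counterpart, and strong ones nearly all had one. Of 7465 promoter peaks with a fold enrichment of at least 10, 266 were not called (3.56%), and of 3206 with at least 20, 10 were not called (0.312%). Peaks that were not called were also narrow, with a median width of 422 bp against 1381 bp.

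**Figure D1:**
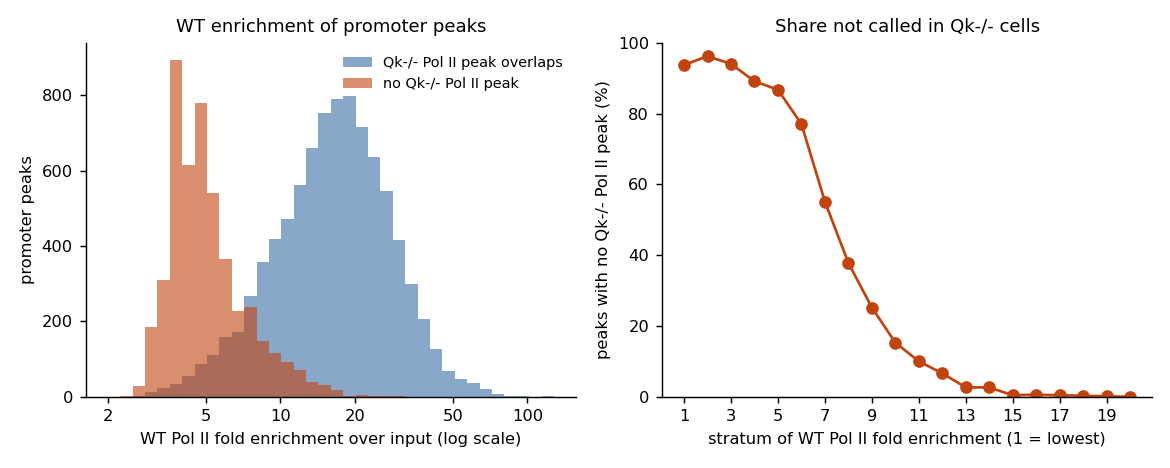
WT Pol II promoter peaks by fold enrichment over input. The left panel counts peaks in bins on a log axis, in red where no Qk-/- Pol II peak was called and in blue where one overlapped; the right panel gives the percentage not called in 20 strata of about equal size, from the lowest to the highest fold enrichment. The share was 93.7% in stratum 1, 55.1% in stratum 7 and 0 in stratum 20.

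The whole lists differed in the same direction. The WT Pol II list held 32280 peaks and the Qk-/- Pol II list 12835, and 66.2% of all WT Pol II peaks had no Qk-/- peak. Away from promoters the share was 91.3% of 18244 peaks. In the other direction, 87 of 10440 Qk-/- promoter peaks had no WT peak (0.833%), led by Wnt11 (15.2-fold), Tpm1 (14.6-fold) and Pdk2 (11.4-fold). Median fold enrichment was 5.22 in the WT list and 8.43 in the Qk-/- list, and the lowest values were 1.37 and 1.41. Kept peaks were divided into 5 equal groups by WT fold enrichment, and the median was 7.86 in WT and 6.54 in Qk-/- cells in the lowest group, and 31.4 and 16.2 in the highest. With 1 library per genotype, less Pol II at promoters and a Qk-/- library in which fewer peaks passed the threshold cannot be told apart, nor can fewer cells of a type and less Pol II per cell. When only the 12835 WT peaks with the highest −log10 q were entered, as many as the Qk-/- list holds, 1062 of 9631 promoter peaks were not called (11%).

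The position of the summit separated the peaks into a group at the TSS and a larger group on its flanks. The summit lay within 300 bp of the nearest TSS in 1507 peaks (32.0%, exact 95% interval 30.6 to 33.3%), farther upstream in 1267 (26.9%) and farther downstream in 1941 (41.2%). Of kept peaks 88.8% had their summit within 300 bp of a TSS, and 69.9% did when kept peaks were weighted to the same WT fold enrichment. Read the other way, 16.1% of promoter peaks at a TSS were not called, against 74.7% of those upstream and 77.5% of those downstream. The distance classes were chosen after the values were seen.

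**Figure D2:**
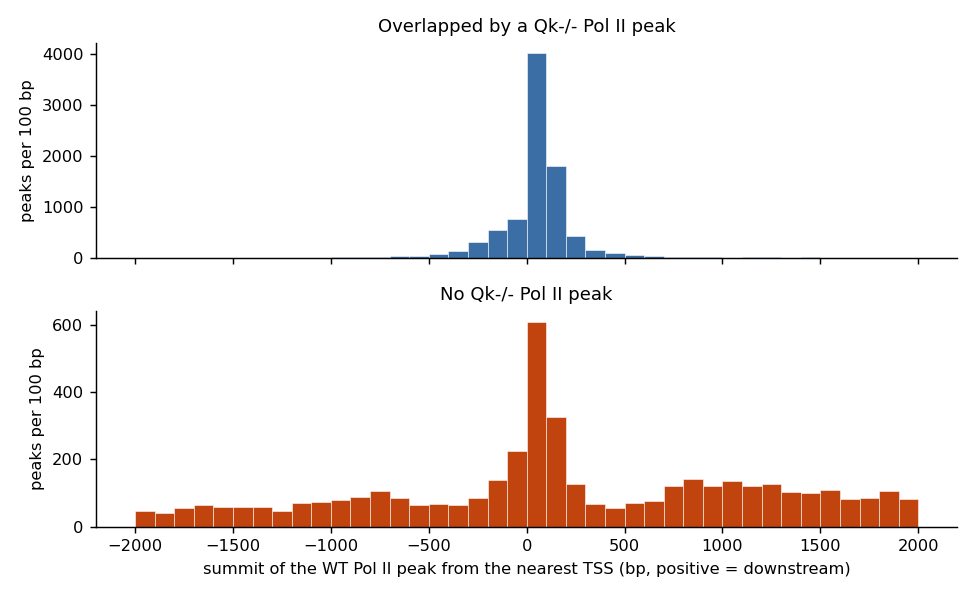
Distance of the summit of WT Pol II promoter peaks from the nearest protein-coding TSS, in bins of 100 bp, with positive values downstream; the upper panel shows kept peaks and the lower panel peaks with no Qk-/- Pol II peak, on axes of their own. Median distances were 92 bp and 827 bp, and summits beyond 2 kb are not drawn.

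For the flanking group, a promoter that the peak overlapped usually still had a Pol II peak in Qk-/- cells. For 71.2% of the 3208 flanking peaks, a Qk-/- Pol II peak lay elsewhere in an overlapped promoter, of the nearest gene or of another. The same was true of only 139 of the 1507 peaks at a TSS (9.22%). The nearest Qk-/- Pol II peak was 35487 bp away in the median for peaks at a TSS and 1760 bp away over all 4715. Peaks at a TSS were also stronger in WT cells, with a median fold enrichment of 6.0 against 4.25 on the flanks. The 4715 peaks had 3813 genes as nearest, of which 741 were nearest to 2 or more, at most 6 at Wfikkn1 and Zmynd8. Counted by gene, 1702 of 11879 genes with a WT Pol II peak at a promoter had no Qk-/- Pol II peak there (14.3%), and for 1814 of 11458 genes with an eligible peak the strongest was not called (15.8%).

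The strongest peaks not called in Qk-/- cells were at the TSSs of genes with varied functions. The first was at Kitl, which encodes the ligand of the receptor kinase Kit. It was 30.8-fold over input and held rank 1214 of 32280, and the nearest Qk-/- Pol II peak was 470637 bp away. It was followed by Isg15, a ubiquitin-like protein induced by interferon (26.5-fold), Xpot, the export receptor of tRNAs (26.0-fold), and Cacng5, a subunit that associates with AMPA receptors (23.9-fold). At Isg15 a Qk-/- Pol II peak lay 1342 bp from the WT peak. Next came Coa3, a cytochrome c oxidase assembly factor (23.0-fold), Egr2, a zinc finger transcription factor (22.6-fold), and Ino80b, a subunit of a chromatin remodeler (21.4-fold). Then came Cndp2, a dipeptidase (21.1-fold), Acin1 (20.8-fold) and Ccl7, a chemokine that attracts monocytes (20.1-fold). The remaining 5 of the leading 15 were Cyp4f13, a cytochrome P450 (18.5-fold), Esd, an esterase (18.1-fold), Ppp1r16a, a regulatory subunit of protein phosphatase 1 (17.9-fold), Chst7, a sulfotransferase (17.6-fold), and Spryd4 (17.5-fold). All 15 summits were within 300 bp of a TSS, and 2 of these peaks, at Ino80b and Cndp2, had a WT Qki-5 peak. Of the 266 with a fold enrichment of at least 10, 86.1% were at a TSS and 91.7% were at promoters with no Qk-/- Pol II peak.

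Near the limits of the rule, the widest peak was at Smpdl3a (3882 bp). The narrowest that the limit of 4000 bp left out was at Nat8f4 (4021 bp, 10.1-fold), 1 of 14 such peaks among the 450 promoter peaks of at least that width. The peak at Sfxn3 lay 3 bp from a Qk-/- Pol II peak, whereas that at Flvcr1 was kept by 11 shared bases. The weakest was at 1600014C23Rik (2.25-fold). Qk itself was not among the eligible peaks because its WT Pol II peak was 8298 bp wide (14.9-fold, with Qk-/- peaks of 6.03-fold and 9.48-fold inside it). Its promoter had a WT Qki-5 peak (8.13-fold) and no Qk-/- Qki-5 peak. The loxP sites flank exon 2, so Pol II at the promoter is no check of the deletion.

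Cholesterol synthesis genes were found on both sides of the split. Of the 54 promoter peaks with a WT Srebp2 peak, 6 were not called in Qk-/- cells, against 34.7% of all promoter peaks. These shares were not weighted to the same WT fold enrichment. Over all 13586 promoter peaks 0.397% had a Srebp2 peak. Of these 6, 5 are described here. Fdft1, which encodes squalene synthase, had a WT Pol II peak of 14.4-fold and the highest WT Srebp2 value of the 6 (31.2-fold). Hsd17b12, an enzyme of fatty acid elongation, had 14.3-fold and 7.51-fold, and its Pol II peak lay 177 bp from a Qk-/- Pol II peak. Stard4, a carrier of cholesterol within cells, had 13.4-fold and 12.1-fold. Lss, lanosterol synthase, had 7.41-fold and 14.5-fold, and Fdps, farnesyl diphosphate synthase, had 6.23-fold and 20.1-fold. Fdps, Stard4 and Hsd17b12 also had WT Qki-5 peaks (5.31-fold, 4.54-fold and 5.06-fold), and none of the 3 had a Qk-/- Qki-5 peak. The Srebp2 peak of Fdft1 had a counterpart in Qk-/- cells (14.5-fold), whereas those of Lss, Fdps, Stard4 and Hsd17b12 had none.

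Among the 22 genes of cholesterol biosynthesis, all with an eligible peak, 5 had their strongest peak not called (22.7%), against 15.8% of all genes. The exact 95% interval of the 22.7%, from 7.82% to 45.4%, included the 15.8% of all genes. Beside Fdft1, Lss and Fdps these 5 genes were Nsdhl, a sterol dehydrogenase (10.2-fold), and Tm7sf2, a sterol reductase (9.02-fold), neither with a Srebp2 peak in the list used here. The kept genes included Hmgcs1 (35.8-fold in WT, 15-fold in Qk-/- cells), Msmo1 (19.8-fold and 9.43-fold) and Cyp51 (16.8-fold and 6.06-fold). The median WT fold enrichment was 14.4 over the list and 15.4 over all genes. Sterol uptake, sensing and transport gave 2 of 16 genes, among them Stard4, and of 11 of fatty acid synthesis 2 were, Elovl7 (5.75-fold) and Scd1 (2.93-fold). Of 12 genes of fatty acid oxidation 0 were.

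**Figure D3:**
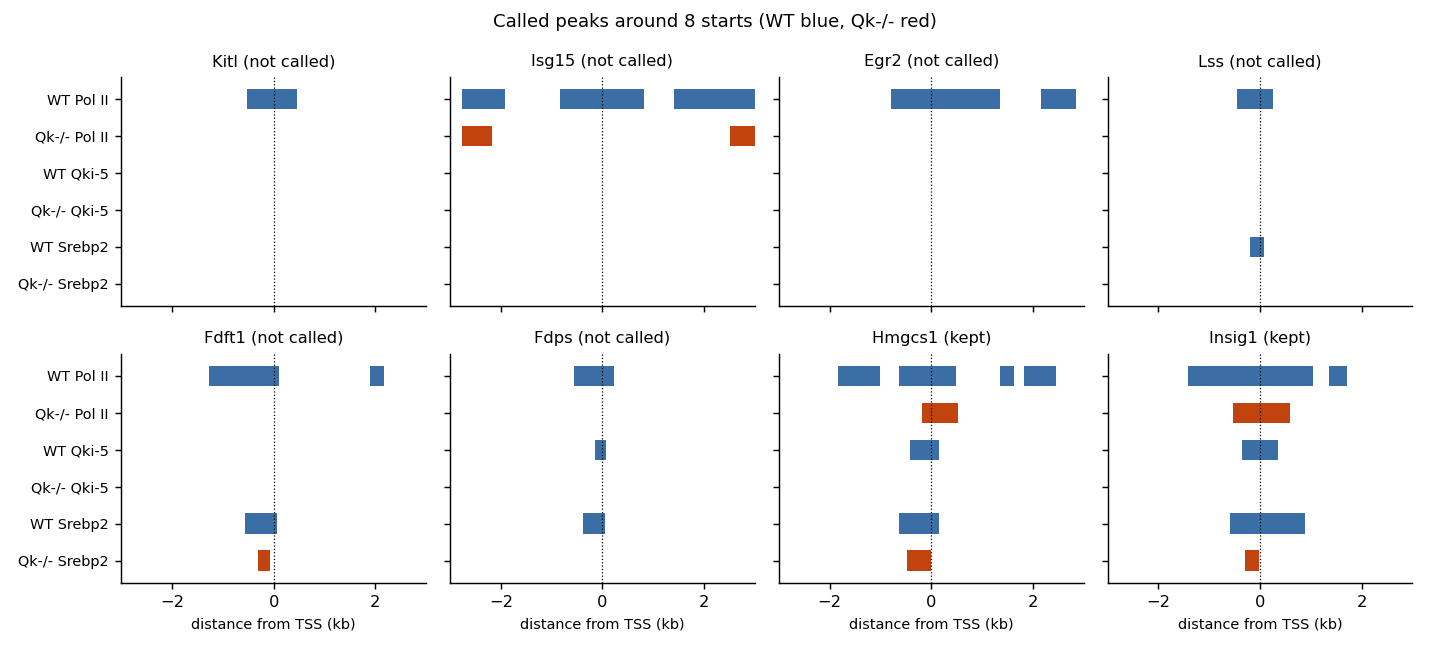
Called peaks of the 6 lists around 8 starts, drawn by distance from the TSS in kb with transcription to the right; bars are peaks, blue in WT and red in Qk-/- cells. At Kitl, Isg15, Egr2, Lss, Fdft1 and Fdps no Qk-/- Pol II bar meets the WT bar at the TSS, whereas at Hmgcs1 and Insig1, shown as kept promoters with Srebp2, one does.

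For Srebp2 occupancy over all 4715 peaks, no difference from kept peaks of similar WT fold enrichment was detectable. The WT lists used here hold 77 Srebp2 and 7539 Qki-5 peaks. Both are shorter than those the study describes, so a missing Srebp2 or Qki-5 peak says only that none is in these lists. The share with a WT Srebp2 peak was 0.127% (6 of 4715, exact 95% interval 0.0467 to 0.277%), against 0.541% of kept peaks (48 of 8871) and 0.149% of kept peaks weighted to the same 20 strata of WT Pol II fold enrichment. The common odds ratio over the strata was 1.5 (exact conditional 95% interval 0.423 to 4.58). From a fold enrichment of 10 upward, a subset chosen after the values were seen, 4 of 266 had a Srebp2 peak (1.5%) against a weighted 0.37%, and the interval of the odds ratio lay above 1 (4.65, 1.08 to 15.3), on those 4 peaks.

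WT Qki-5 peaks were less frequent at the peaks not called than at kept peaks of similar WT fold enrichment. A WT Qki-5 peak overlapped 236 of the 4715 (5.01%, exact 95% interval 4.40 to 5.67%), 3125 of the 8871 kept peaks (35.2%) and 24.7% of all promoter peaks. Most of that gap goes with strength, since weighted to the fold strata of the peaks not called the kept share was 9.84%. The odds ratio over the 20 strata was 0.597 (exact conditional 95% interval 0.491 to 0.726). At a TSS the shares were 9.22% and a weighted 13.5%, with an odds ratio of 0.650 (0.518 to 0.812), and away from a TSS 3.02% and 6.44%, with an odds ratio of 0.533 (0.357 to 0.797). From a fold enrichment of 10 upward 52 of 266 had a Qki-5 peak (19.5%) against a weighted 27.7% (odds ratio 0.627, 0.448 to 0.866). With strata of −log10 q in place of fold enrichment, the odds ratio was 0.857 and its interval included 1 (0.693 to 1.06). The same held when a Qk-/- peak within 1 kb also kept a WT peak (0.872, 0.728 to 1.04), with shares of 7.08% and a weighted 7.36%. The intervals cover counting over peaks of these libraries, and peaks are not replicates. The Pol II and Qki-5 libraries of a genotype share an input, and the part of that input in the overlap was not tested.

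**Figure D4:**
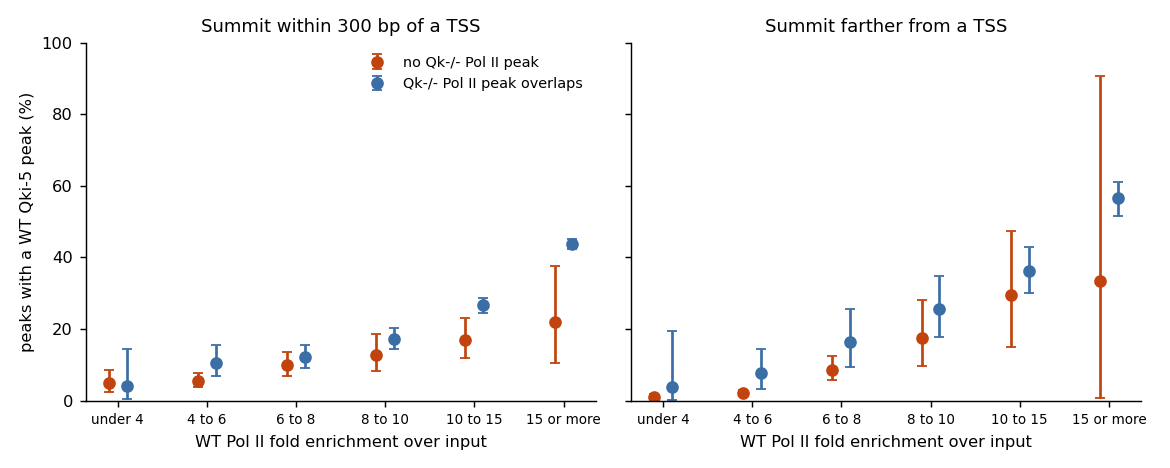
Percentage of WT Pol II promoter peaks with a WT Qki-5 peak, in 6 bands of WT Pol II fold enrichment, for peaks with a summit within 300 bp of a TSS (left) and farther away (right). Points are shares in 1 library per antibody, red for peaks not called in Qk-/- cells and blue for kept peaks, and bars are exact 95% intervals. At a TSS the shares were 17.0% and 26.6% from 10 to 15-fold, and 4.93% and 4.17% below 4-fold.

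The peaks that did carry Qki-5 were led by Mecom, a zinc finger transcription factor, with a Qki-5 fold enrichment of 14.4 and a Pol II fold enrichment of 8.14. Cpsf1, the largest subunit of the cleavage and polyadenylation specificity factor, followed with 13.3 for Qki-5 and 17.2 for Pol II. Mlc1, a membrane protein of astrocytes, had 11.5 and 5.55, and Ppm1h, a phosphatase, had 10.5 and 8.08. Relative to the TSS, the Pol II summit lay at -551 bp in Mlc1, at -460 bp in Ppm1h and at 1288 bp in Mecom, where negative values are upstream. The other 6 of the leading 10 were Cdca7 (10.5-fold for Qki-5), Cyp1b1 (9.93-fold), Fth1, the ferritin heavy chain (9.85-fold), Slc38a7, an amino acid transporter (9.59-fold), Tnfsf13, a cytokine of the TNF family (8.92-fold), and Cdon, a coreceptor of hedgehog ligands (8.79-fold). Of these 10, Cdca7 was the 1 whose Qki-5 peak was also called in the Qk-/- list (13.3-fold).

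Interferon-stimulated genes were frequent among the genes not called. Isg15 drew attention to them, and the list of these genes was drawn up after the values were seen, so that its count is a description. Of 24 such genes with an eligible peak, 16 had their strongest peak not called (66.7%, against 15.8% of all genes), and none of the 16 had a Qk-/- Pol II peak elsewhere in its promoter. Gbp9, a guanylate-binding GTPase, had a WT Pol II peak of 16.6-fold, and Ifit3b, Ifit3 and Ifit1, antiviral proteins that bind RNA, had 15.9-fold, 15.2-fold and 12.3-fold. Irf7, the transcription factor that amplifies the interferon response, had 14.1-fold, Ddx58, a sensor of viral RNA, 10.8-fold, and Rsad2, an antiviral enzyme, 9.92-fold. Tap1 and Psmb9, genes of antigen processing that share a promoter, share 1 peak of 10.6-fold. The kept 8 included Usp18 (48.2-fold), Irf1 (23.9-fold), Stat2 (19.6-fold), Irf9 (14.7-fold), Gbp3 (11.9-fold), Psmb8 (10.2-fold) and Ifit2 (7.11-fold). Stat2 and Irf9 encode parts of the transcription factor complex that interferon activates. The median WT fold enrichment of the list was 12.6, against 15.4 over all genes. GAAANNGAA lay within 150 bp of the summit at 5 of the 16 and 2 of the 8.

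Other secreted signals in lists drawn up in the same way gave 5 of 8 chemokine and cytokine genes and 8 of 18 growth factor genes, against 15.8% of all genes. Their median WT fold enrichment was 11.1 and 11.8, against 15.4 over all genes. Beside Ccl7 the former were Il34 (8.69-fold), Csf1 (6.52-fold), Cxcl10 (6.51-fold) and Lif (4.32-fold), of which the Csf1 promoter kept another Qk-/- Pol II peak. Beside Kitl the latter included Bdnf, a neurotrophin (15.5-fold), Gdf15 (8.30-fold), Tgfb1 (7.17-fold) and Ptn (6.69-fold). Hbegf (55.7-fold), Vegfa (44.2-fold) and Pdgfa (20.6-fold) were kept.

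Genes that drive cell division were found in the set about as often as they were kept. Of 21 cell cycle genes with an eligible peak, 10 had their strongest peak not called (47.6%, against 15.8% of all genes), and none of the 10 promoters had another Qk-/- Pol II peak. They included the cyclin genes Ccna2 (12.4-fold), Ccnd1 (9.58-fold) and Ccne1 (9.37-fold), the replication genes Mcm5 (6.84-fold) and Cdc6 (6.30-fold), and the kinase gene Cdk1 (5.40-fold). Kept were among others Pcna (24.4-fold), Cdk2 (22.3-fold), Cdk4 (19.2-fold) and Ccnb1 (9.76-fold). The list was weak in WT cells, with a median fold enrichment of 9.64. Of 33 DNA repair genes 3 were not called, Ercc2 (8.79-fold), Xrcc1 (7.98-fold) and Fanca (6.90-fold).

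Genes of ion channels and neurotransmitter receptors gave 8 of 13, against 15.8% of all genes, with a median WT fold enrichment of 5.55 over the list. They included the inward rectifier channels Kcnj16 (12-fold) and Kcnj10 (8.47-fold, with a Qki-5 peak of 6.72-fold). Gria4, an AMPA receptor subunit, had 5.55-fold, Hcn2 5.23-fold and Cacna1c 4.58-fold. By symbol, 15 of 29 Kcn genes, 7 of 13 Pcdh genes, 7 of 14 Col genes, 11 of 26 Gpr genes and 7 of 17 Cyp genes had their strongest peak not called. These families were weak in WT cells as well, with medians from 7.49 (Pcdh) to 8.47 (Kcn), so that their high shares go with low enrichment. The family of zinc finger genes with Zfp symbols lay near the share of all genes (46 of 321, 14.3%), as did the Slc transporters (39 of 190, 20.5%).

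Immediate early genes, which cells switch on within minutes of a stimulus, gave 5 of 10 by their strongest peak under 4000 bp, against 15.8% of all genes. Of the immediate early genes 16 had a WT Pol II promoter peak, some only of 4000 bp or wider, which the rule left out. In 3 genes no Qk-/- Pol II peak lay in the promoter, and the share of all genes with a WT promoter peak that had none was 14.3%. Egr2 (22.6-fold) and Nr4a1 (13.9-fold) had their peak at the TSS and no other Qk-/- Pol II peak in the promoter. The Junb peak (4.90-fold) and the Myc peak (3.6-fold) lay over 1 kb upstream of the TSS, and these promoters still had a Qk-/- Pol II peak. Fosb had 4.19-fold. Ier2 (63.8-fold), Dusp1 (53.7-fold), Atf3 (47.0-fold), Egr1 (44.1-fold) and Klf4 (39.8-fold) were kept. Among 29 genes of the primary cilium 7 were not called (24.1%, with an exact 95% interval of 10.3% to 43.5% that includes the 15.8% of all genes), led by Ift52 (11.6-fold), Ift22 (10.4-fold) and Bbs5 (9.77-fold), carriers and coat proteins of cilia, followed by Cep164 (8.09-fold), Rpgrip1l (7.79-fold) and Bbs7 (6.60-fold). Among 15 genes of the extracellular matrix 5 were (33.3%, with an exact 95% interval of 11.8% to 61.6%), namely Tnc (15.3-fold), Hspg2 (12-fold), Col5a2 (6.52-fold), Vcan (6.51-fold) and Lamb1 (6.19-fold). Among 12 patterning genes 3 were (25%, with an exact 95% interval of 5.49% to 57.2%), Nkx2-2 (9.20-fold), Pax6 (4.82-fold) and Otx1 (3.61-fold), and the last 2 promoters kept another Qk-/- Pol II peak. Hey1 (5.70-fold) was the 1 of 9 Notch pathway genes and Trib3 (3.34-fold) the 1 of 15 unfolded protein response genes.

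Genes that every cell uses were seldom in the set. None of 27 splicing genes, 12 Pol II subunit genes, 10 housekeeping genes and 15 peroxisome genes had its strongest peak not called, against 15.8% of all genes. Of 79 genes of cytosolic ribosomal proteins 1 did (Rps15, 6.85-fold). Shares were also low for histone genes (1 of 54, Hist1h3g, 6.64-fold), proteasome genes (3 of 47) and Nduf genes of respiratory complex I (3 of 45). Genes of mitochondrial ribosomal proteins gave 8 of 76. The median WT fold enrichment was 25 for splicing, 26.6 for cytosolic ribosomal proteins and 35.6 for histone genes, above the 15.4 of all genes. It was 14.3 for peroxisome genes, 15.3 for mitochondrial ribosomal proteins and from 18.2 to 23.5 for the other lists of this paragraph. Of cell type markers with an eligible peak, Map2 (12.4-fold), Tubb3 (7.17-fold), Aqp4 (6.74-fold) and Pdgfra (3.61-fold) were not called. Cnp, Cspg4 (11.7-fold), Aldoc (8.67-fold) and Ptprz1 (6.92-fold) were kept. The promoters of Map2 and Aqp4 still had a Qk-/- Pol II peak.

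**Figure D5:**
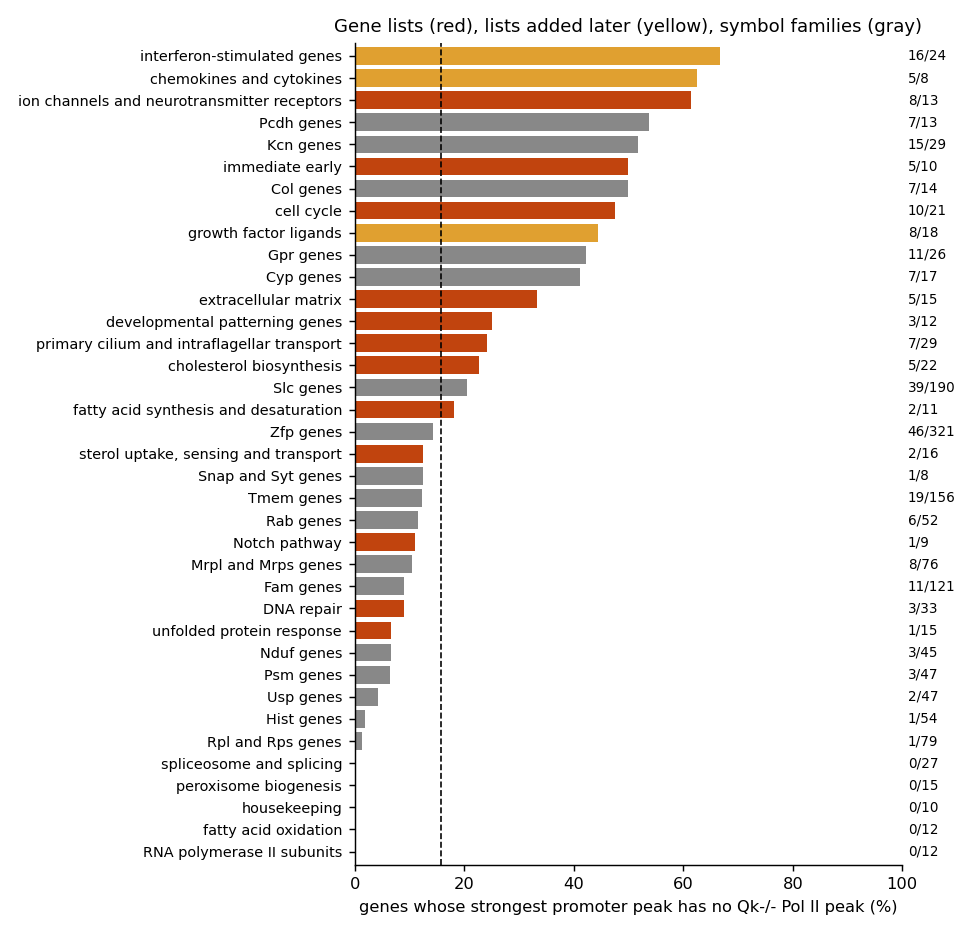
Percentage of genes whose strongest eligible WT Pol II promoter peak had no Qk-/- Pol II peak, for lists and symbol families with at least 8 genes; the counts stand at the right and the dashed line marks the 15.8% of all genes. Red bars are lists written with earlier results of these data known, yellow bars lists drawn up after the values were seen, and gray bars families by symbol. Interferon-stimulated genes were at 66.7% and 5 lists were at 0.

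The sequence under the summits was poorer in G and C than under kept peaks. In 300 bp around the summit the mean GC content was 53.2%, against 63.3% in kept peaks weighted to the same WT fold enrichment, a difference of -10.0 percentage points (95% interval -11 to -9.04). At a TSS it was 61.8% against 66.2% (-4.38 points, -5.15 to -3.6), and on the flanks 49.2% against 56.3% (-7.10 points, -8.72 to -5.48). The ratio of observed to expected CpG, which is high in CpG islands, averaged 0.652 and 0.799 at a TSS (difference -0.148, -0.168 to -0.128). When a Qk-/- peak within 1 kb also kept a WT peak, so that fewer flanking peaks were among those not called, the GC difference over all peaks turned to 1.33 points (0.836 to 1.82).

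Some short motifs at a TSS also differed in frequency. Within 150 bp of the summit GGGCGG was present in 52.3% of the 1507 peaks (exact 95% interval 49.7 to 54.8%) and in 65.0% of kept peaks weighted to the same fold enrichment, and TATAAA in 4.64% (3.64 to 5.83%) and 2.96%. CCAAT was in 28.0% of both. GAAANNGAA was in 6.83% (5.61 to 8.23%) and 4.32%. ACTAAC or ACTAAT, the core that Qki binds in RNA, was in 6.44% (5.25 to 7.8%) and 4.10%. Over all 13586 promoter peaks these motifs were in 55.6%, 5.65%, 26.6%, 5.45% and 6.93%, in the same order. CACGTG was in 7.37% and a weighted 8.26%, and TGACGTCA in 2.06% and 2.82%. GCATGCGC, a core of Nrf1 sites, was in 2.46% and 3.35%, and TCACCCCAC in 0.398% and 0.521%. For each of these the exact 95% interval of the first share included the second. Both strands were searched, and a match is a string of letters, not a bound site. The groups were not matched for GC content, and the part of base composition in these differences was not tested.

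Divergent promoters, where a start of another protein-coding gene on the opposite strand pointed away within 1000 bp, were less frequent among the peaks not called by one measure. They made up 5.87% of the 4715 (277 peaks), 8.74% of kept peaks and 5.94% of kept peaks weighted by fold enrichment. The odds ratio over the strata was 0.668 (exact conditional 95% interval 0.521 to 0.857), although the weighted shares were nearly equal. At a TSS the shares were 4.38% and a weighted 8.00% (odds ratio 0.525, 0.378 to 0.721), and away from a TSS 6.58% and 4.95% (odds ratio 1.21, 0.669 to 2.28). When a Qk-/- peak had to cover at least 50% of a WT peak to keep it, the odds ratio was 1.06 (0.913 to 1.22). By chromosome the share not called ran from 28.6% on chromosome 12 to 41.3% on chromosome X, leaving out chromosome Y with 1 eligible peak. Median WT fold enrichment was 12.8 and 8.93 on these 2 chromosomes.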

How the data were processed

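ChIP-seq peak lists for Pol II, Qki-5 and Srebp2 in WT and Qk-/- cells were used, with 1 library each. The study's methods give Trim Galore for trimming, Bowtie2 for alignment, SAMtools for duplicate removal and MACS2, run by the authors for each library against its input at a q-value of 0.05. The submitters' processing notes name Bowtie 1.2.2, MACS2 2.1.2 and mm10.

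The fold enrichment deposited by the authors is a ratio of signal at the summit to local background. The −log10 p-value and −log10 q-value were deposited by the authors from the test of MACS2, and the deposited score is an integer form of the latter. Nothing else was normalized, and depth is not given in the sources used here.

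Peaks were intersected by at least 1 bp with Python 3.11.15, pandas 2.3.3 and pysam 0.24.0. Genes were named by the protein-coding TSS nearest to the summit. Strata were 20 groups of equal size by WT Pol II fold enrichment. Common odds ratios with exact conditional 95% intervals were computed in R 4.3.3 (mantelhaen.test), shares carry Clopper-Pearson intervals from scipy 1.17.1, and GC differences are means over the strata with intervals from the spread between peaks. No p-value was computed. The calculations were tested on simulated data.

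Named are the 15 strongest peaks, the 10 with the highest Qki-5 values, those with Srebp2, members of gene lists (up to 6 where more), peaks next to each limit of the rule, markers and Qk. Kept genes named beside a list, members of families and lists named as drawn up later, and the leading peaks of the Qk-/- list were chosen after their values were seen. The peak set and the lists were chosen with earlier results of these data known. Some genes of the lists are not reported here.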

Additional observations from a re-analysis of the deposited data

Results flagged for a closer look

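Qk-/- Qki-5 peaks, which enter none of the comparisons with kept peaks as a readout, overlapped 7 of the 4715 peaks, and a Qki-5 peak in cells without Qk is a signal in data outside the main measurement. They were at Pfdn5 (WT Pol II 11.6-fold, Qki-5 4.15-fold in WT and 7.96-fold in Qk-/- cells), Kcnj4 (7.99-fold, 3.63-fold and 5.83-fold), E030030I06Rik (7.49-fold, 7.05-fold and 7.59-fold), Gjc1 (5.55-fold, 7.72-fold and 8.92-fold), Cdca7 (4.95-fold, 10.5-fold and 13.3-fold) and Socs2 (3.24-fold, 6.32-fold and 6.30-fold). Mkx (2.47-fold for WT Pol II) had a Qk-/- Qki-5 peak of 8.20-fold and no WT one. The share was 0.148% (exact 95% interval 0.0597 to 0.306%), against 1.13% of kept peaks. Kept peaks were stronger in WT cells, and this share was not weighted to the same WT fold enrichment. The source of these peaks was not tested.

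Qk-/- Srebp2 peaks, likewise no readout of those comparisons, overlapped 3 of the 4715, among them those at Fdft1 (31.2-fold in WT and 14.5-fold in Qk-/- cells) and Kifap3 (no WT Srebp2 peak, 7.05-fold in Qk-/- cells). Values in different libraries are set side by side without a test.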

How the results depend on the processing

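The number of peaks not called was 4715, and it was 2517 with a Pol II fold enrichment of at least 5 in both lists, 8376 when a Qk-/- peak had to cover 50% of the WT peak, 2982 when a Qk-/- peak within 1 kb also kept it, and 1062 with the WT list reduced to the size of the Qk-/- list. The number of genes, 1702, was 3027 with all genes of the annotation and 885 with the reduced list. The other 8 alternatives for these 2 counts stayed within 1.5 times.

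For Qki-5 the odds ratio stayed below 1 in all 15 alternatives, from 0.0969 without strata to 0.877, and its interval included 1 in 2 of them, 0.872 when a peak within 1 kb kept and 0.857 with strata of −log10 q. For Srebp2 the direction turned at a Pol II fold enrichment of at least 5 (0.786) and without strata (0.234). The GC difference turned only when a Qk-/- peak within 1 kb also kept (1.33 points), out of 15 alternatives. For divergent promoters the odds ratio turned when 50% had to be covered (1.06), and its interval included 1 with strata of −log10 q (0.823). The causes were not tested. The alternatives with strata by distance from the TSS and with the reduced list were chosen after seeing the data. No paired analysis was possible because there is 1 library per group.

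Unknown depth limits what a missing peak says, since Pol II below the calling threshold was not measured here.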
